A study of Mus musculus with 5 samples.

Results

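The genes described here encode the nuclear subunits of the mitochondrial respiratory chain and ATP synthase, as read in group 2 innate lymphoid cells (ILC2s) of the mouse lung. Genes were taken by the name the platform annotation gives their probe set (Nduf with a, b, c, s or v, Uqcr, Cox4 to Cox8, Sdha to Sdhd, Atp5), only where a probe set carried a single symbol, and by no measured value. This gave 89 genes of 22180 with a single symbol: 32 of complex I, 4 of complex II, 7 of complex III, 19 of complex IV and 17 of complex V. The naming rule also took in 8 assembly factors of complex I (Ndufaf1 to Ndufaf8), which help to build the complex and are not part of it, and 2 pseudogenes. ILC2s are tissue-resident lymphocytes that respond to the alarmin IL-33. They were isolated from lungs of adult male naive mice, wild type (3 arrays) or IL-33 knockout (2 arrays), each array a biological replicate by the labels. The sources used here give neither the strain, nor whether animals were pooled, nor the part of Il33 removed in the knockout.

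The respiratory chain passes electrons from NADH (complex I) and succinate (complex II) through ubiquinone, complex III and cytochrome c to complex IV, where oxygen is reduced. Complexes I, III and IV pump protons across the inner mitochondrial membrane, and ATP synthase (complex V) uses their return to make ATP. Most subunits are encoded in the nucleus, as all members here are. The mitochondrially encoded subunits were not analysed here. In lymphocytes, oxidative phosphorylation supports both the resting state and activation.

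Values are log2 signals after RMA (robust multi-array averaging, which corrects background, normalizes arrays and summarises the probes of a set), and differences are knockout minus wild type on that scale. RMA as usually run hides a shift shared by all transcripts, and in a bulk sample of isolated cells less RNA per cell cannot be told apart from fewer cells of a type. Array medians lay between 4.29 and 4.33. ILC2 markers were bright: all 11 measured, among them Il7r, Gata3, Klrg1 and Id2, lay above the median gene (4.48). Il33 was dim on every array, at 3.32 to 3.39 in wild type and 3.79 and 3.95 in knockout. Since its probe positions relative to the deletion are not known here, it does not check the labels. Xist, the female-specific X-inactivation RNA, read 7.91 in knockout replicate 2 and 2.35 to 3.10 on the other arrays, although all samples are labelled male. Of 3 Y-linked genes, Kdm5d (4.79 against 5.57 to 5.63) and Eif2s3y (6.14 against 6.83 to 7.62) were lowest on that array, and Uty was highest (7.17 against 5.83 to 6.96). Values without knockout replicate 2 are therefore given beside several results below.

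Most of these transcripts gave signals above that of the median gene, a level that does not by itself show detection. Of the 89 genes, 81 had a mean signal above the median gene. The 8 below it were the tissue isoforms Cox4i2, Cox7a1, Cox7b2, Cox8b and Cox8c, the hypoxia-inducible Ndufa4l2, and the pseudogenes Atp5c1-ps and Uqcrh-ps1. Mean signals ran from 4.52 to 10.62 over complex I, from 5.74 to 8.10 over complex II, from 6.03 to 10.19 over complex III and from 4.67 to 11.79 over complex V. In complex IV they ran from 1.94 to 10.57. Probes differ in affinity, so these ranges do not rank genes by abundance. After the dimmest 25% of genes had been left out, 86 members were tested, Cox7b2 and the 2 pseudogenes being too dim.

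No member passed the test between genotypes once p-values were adjusted over all genes. With limma (empirical Bayes moderated statistics, Benjamini-Hochberg adjustment over 16635 genes), 0 of 86 members had an adjusted p below 0.05, as did 0.0% of all genes. The lowest adjusted p among members was 0.402. Unadjusted p-values below 0.05 were found for 10 members, against 7.64% of all genes. Of these, 6 were higher without overlap (5.05% of all genes) and 4 lower (2.59%). With 3 arrays against 2, an exact permutation test of a single gene cannot go below p = 0.1, so none is given. The median difference over the members was 0.09, and over all genes tested it was 0.04. The members' median was 0.04 without knockout replicate 2 and 0.05 without knockout replicate 1. Quantile normalization gave 0.04 for the members and 0.01 for all genes, and median centring 0.03 and -0.01. Of the 86, 53 lay above 0, 30 below and 3 had equal values on all arrays, where a difference within 0.000001 of 0 counts as equal. Differences above 0 made up 57.1% of all genes tested.

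Described by array, the groups did not overlap for 26 of the 86 members (30.2%), against 18.0% of all genes tested. Both knockout values exceeded every wild-type value for 16 members, against 11.6% of all genes, and lay under every one for 10 members, against 6.32%. The values behind this are shown in the plot of members without overlap. Many deposited values are exactly equal between arrays, which counts as overlap, and 51.2% of members tested had 5 distinct values against 36.4% of all genes. Among genes with 5 distinct values the groups did not overlap for 21 of 44 members (47.7%) and 32.6% of all genes. By direction these were 29.5% higher and 18.2% lower among members, and 20.4% and 12.2% among all genes. In the brighter part of the array (the dimmest 50% left out) it was 30.9% of 81 members and 19.6% of genes. The split by direction depended on scaling. After quantile normalization 11 members were higher and 16 lower without overlap, where all genes gave 12.1% and 17.6%. After centring each array on its median 10 were higher and 20 lower, where all genes gave 8.66% and 23.6%. Over both directions the members then stood at 31.4% against 29.6% of all genes, and at 34.9% against 32.3%. The higher share of members is seen in the values as deposited, and is near the background after either scaling. Scaling also separates values that were equal as deposited: Ndufb11, with 1 value on all arrays, differed by -0.05 after either scaling. Shares before and after scaling are therefore not directly comparable. Of the 16 members that were higher, 7 kept that position under both scalings (Ndufb3, Ndufa1, Cox5b, Cox4i2, Cox6b2, Atp5k and Atp5md), and all 10 that were lower did so. The median difference over all genes fell from 0.0385 to 0.0086 with quantile normalization and to -0.0141 with median centring. Staying lower was thus favoured by the scaling, so the counts of 7 and 10 do not rank the directions by stability. Without knockout replicate 2, the differences of Ndufb3, Cox6b2, Atp5k, Cox5b and Atp5md were 1.14, 0.87, 0.73, 0.51 and 0.41.

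**Figure D1:**
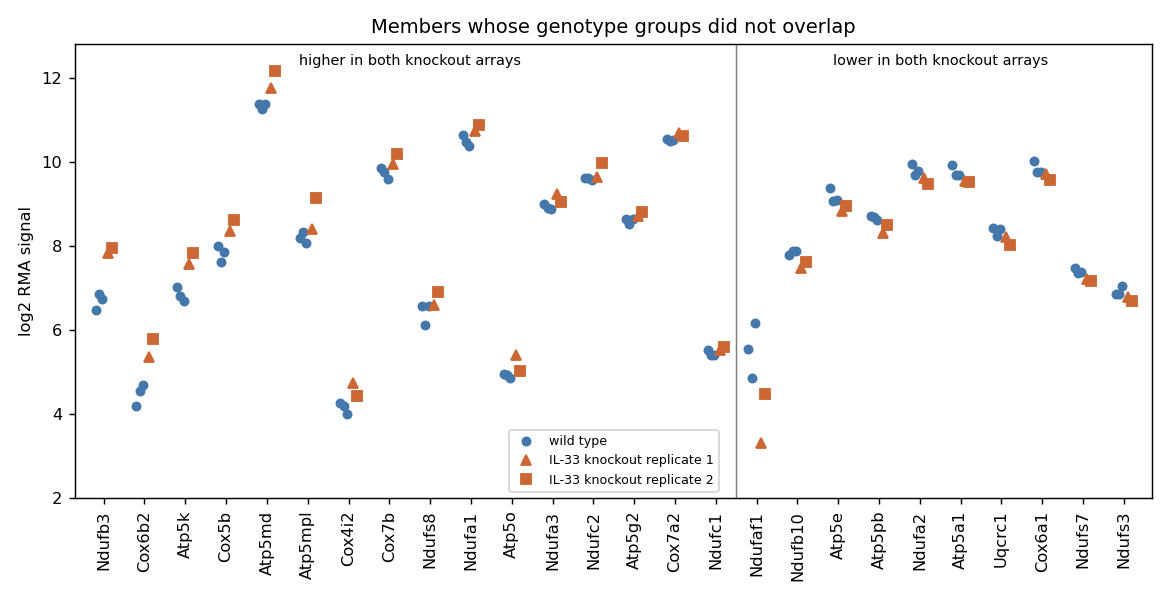
Log2 RMA signal of the 26 members whose genotype groups did not overlap; circles are the 3 wild-type arrays, the triangle and the square are knockout replicates 1 and 2. The widest gaps between groups are those of Ndufb3 (0.98), Cox6b2 (0.65) and Atp5k (0.56).

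**Figure D2:**
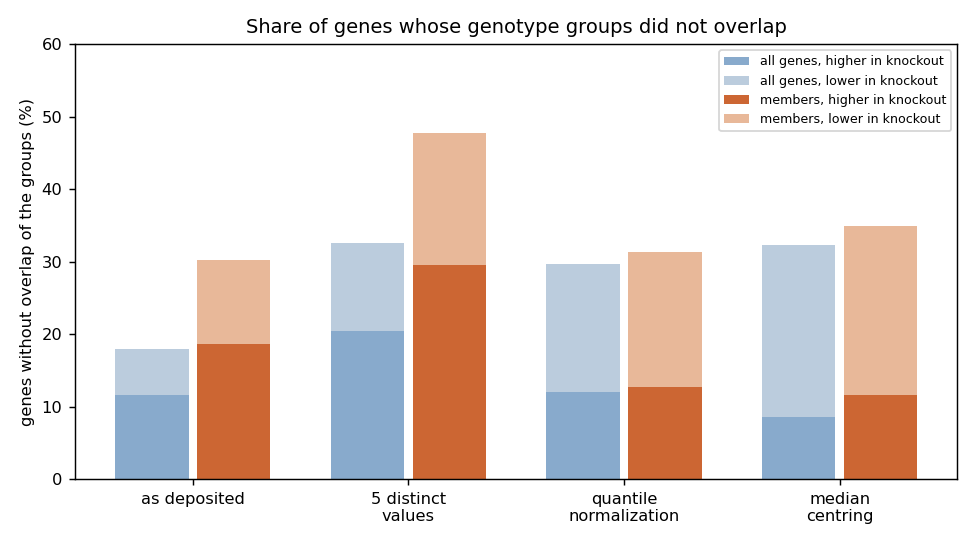
Percent of genes without overlap of the genotype groups, for all genes and for the members, in the values as deposited, in genes with 5 distinct values, after median centring and after quantile normalization. The members stand at 30.2% against 18.0% as deposited, and within a few percentage points of all genes after either scaling. Scaling also separates values that were equal as deposited.

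Complex I, the NADH dehydrogenase, contained the member with the smallest p. Ndufb3, an accessory subunit of the membrane arm, read 6.48, 6.85 and 6.74 in wild type and 7.83 and 7.95 in knockout. Both knockout arrays lay well above the wild-type range, which was wider than the distance between them. Its difference was 1.20 (SE 0.14), or 2.30-fold, with a limma adjusted p of 0.402, and it stayed between 1.09 and 1.28 over the alternatives. Ndufb10, another membrane-arm subunit, pointed the other way, at 7.78, 7.87 and 7.87 in wild type against 7.48 and 7.62 in knockout. Its difference was -0.29 (SE 0.07, limma adjusted p = 0.496). Ndufb3 and Ndufb10 thus lay on opposite sides of the wild-type values.

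The core of complex I, which carries the flavin and the iron-sulfur clusters, was split between directions. Of its 7 nuclear genes 6 had a probe set of their own, and 3 of these differed upward and 3 downward. Ndufs7, whose iron-sulfur cluster passes electrons to ubiquinone, read 7.46, 7.35 and 7.38 in wild type and 7.22 and 7.17 in knockout, lower in both knockout arrays. Its difference was -0.20 (SE 0.06, limma adjusted p = 0.541). Ndufs3, of the same hydrophilic arm, also lay lower without overlap, by 0.19, and its closest arrays were 0.07 apart. The iron-sulfur subunit Ndufs8 lay higher by 0.325, but knockout replicate 1 exceeded the highest wild-type array by 0.01 only, and the difference was 0.17 without knockout replicate 2. Ndufv1, which binds NADH and the flavin, Ndufv2, an iron-sulfur subunit, and Ndufs1, the largest iron-sulfur subunit, had overlapping groups and differences of 0.21, 0.24 and -0.27.

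The accessory subunits of complex I had a median difference of 0.02 over 26 genes. Without overlap, Ndufa1, Ndufa3, Ndufc1 and Ndufc2 were higher by 0.30, 0.21, 0.12 and 0.20, besides Ndufb3. Ndufc2 differed by 0.04 without knockout replicate 2, and Ndufc1 and Ndufc2 had overlapping groups after either scaling, as Ndufa3 had after median centring. Ndufa3 differed by 0.11 without knockout replicate 1. Ndufa2 was lower, by 0.25, besides Ndufb10. The widest downward difference with overlap was that of Ndufa11, at 6.86, 6.14 and 7.01 in wild type and 6.77 and 5.08 in knockout. It rested on knockout replicate 2: the difference was -0.74 over both arrays and 0.10 without that array. Ndufb11 read 4.57 on all 5 arrays. Over the whole complex 17 of 32 genes lay above 0, where 57.1% of all genes tested did. The groups did not overlap for 10 of the 32 (31.2%, against 18.0% of all genes). Of these, 6 were higher and 4 lower (18.8% and 12.5%, against 11.6% and 6.32% of all genes). The median difference of 0.02 changed to -0.04 after median centring, which shifts every gene of an array alike.

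Complex II, which oxidises succinate and also belongs to the citric acid cycle, showed no member without overlap. Sdha, the flavoprotein, differed by 0.002 and Sdhb, the iron-sulfur protein, by -0.20. The membrane anchors Sdhc and Sdhd differed by 0.28 and 0.09. Without knockout replicate 2 the signs of Sdhb and Sdhd turned, to 0.09 and -0.03, and Sdha differed by 0.16. For Sdha the 2 knockout arrays lay on either side of wild type, at 8.26 and 7.95 against 8.10, 8.10 and 8.11. The limma adjusted p of the 4 genes lay between 0.655 and 1.

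In complex III, which carries electrons from ubiquinol to cytochrome c, 1 of 7 members had groups that did not overlap (14.3%, against 18.0% of all genes). Uqcrc1, a core protein facing the matrix, read 8.42, 8.22 and 8.40 in wild type and 8.20 and 8.02 in knockout. The closest arrays differed by 0.02, and the difference was -0.23 (SE 0.10, limma adjusted p = 0.623), or -0.14 without knockout replicate 2. Its partner Uqcrc2 differed by 0.20 with overlap, and by -0.06 without knockout replicate 1. The Rieske iron-sulfur protein Uqcrfs1 differed by 0.13. The small subunits Uqcrb, Uqcrh and Uqcr11 differed by 0.14, 0.22 and 0.20 and Uqcrq by -0.22, all with overlap. Without knockout replicate 2 the first 3 differed by 0.04, 0.03 and 0.01, Uqcrq by -0.42 and Uqcrfs1 by 0.06.

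**Figure D3:**
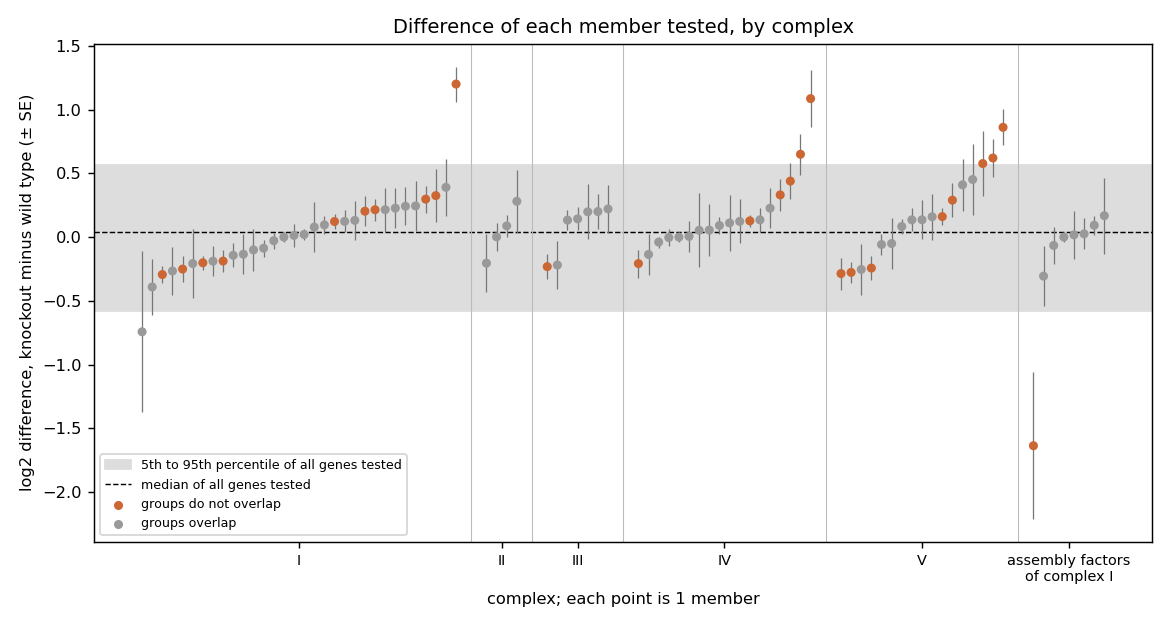
Log2 difference, knockout minus wild type, with its standard error for the 86 members tested, ordered within each complex; the band is the 5th to 95th percentile over all genes tested (-0.58 to 0.56) and the dashed line their median (0.04). Outside the band lie 8 members: Ndufb3, Cox6b2, Atp5k, Cox5b, Atp5md and Atp5mpl above it, Ndufa11 and Ndufaf1 below it.

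Complex IV, cytochrome c oxidase, had 5 members higher and 1 lower without overlap among 18 tested (27.8% and 5.56%, against 11.6% and 6.32% of all genes). Cox5b, a zinc-binding subunit on the matrix side, read 8.004, 7.63 and 7.86 in wild type and 8.34 and 8.62 in knockout. The knockout arrays exceeded the wild-type range by at least 0.34, and the difference was 0.65 (SE 0.16, limma adjusted p = 0.514). The second probe set of Cox5b, dimmer, gave a difference of 0.28, with knockout replicate 1 equal to the highest wild-type array at 6.19. Cox7a2 and Cox7b, small membrane subunits, were higher by 0.13 and 0.33, but the groups overlapped for Cox7b after quantile normalization and for Cox7a2 after median centring. Cox6a1, a regulatory subunit, was lower by 0.21. The main subunit 4 isoform Cox4i1 differed by -0.04, Cox5a by 0.01 and Cox8a by -0.004, each with overlap. Ndufa4, first assigned to complex I and now counted with complex IV, read 9.18 and 9.84 in knockout against 9.34 to 9.44 in wild type.

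Several complex IV subunits exist as a broadly expressed form and a form known from certain tissues, and the plot of isoforms shows each of them against the median gene (4.48). All 6 broadly expressed forms lay above it. Of the forms known from certain tissues, Cox6a2 and Cox6b2 lay above it and Cox4i2, Cox7a1, Cox7b2, Cox8b and Cox8c below. Cox4i1, Cox6a1, Cox6b1, Cox7a2, Cox7b and Cox8a had mean signals of 7.75 to 10.57. Cox6a2, Cox7a1 and Cox8b, known from heart and skeletal muscle, had 5.04, 4.35 and 4.06, and Cox7b2 and Cox8c, known from testis, had 1.94 and 3.64. Cox6a2 and Cox7b2 had the same value on all 5 arrays.

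Of the 7 tissue or inducible isoforms tested, Ndufa4l2 among them, 2 were higher in knockout without overlap (28.6%, against 11.6% of all genes). Cox6b2, the testis form of a subunit facing the intermembrane space, read 4.19, 4.56 and 4.69 in wild type and 5.35 and 5.78 in knockout. The knockout arrays stood above the wild-type arrays by 0.65 at the closest, and the difference was 1.09 (SE 0.23, limma adjusted p = 0.461). Its broadly expressed partner Cox6b1 differed by 0.23 with overlap. Cox4i2, a form known from lung and from low oxygen, read 4.25, 4.18 and 3.99 in wild type and 4.73 and 4.43 in knockout, a difference of 0.44 (SE 0.14, limma adjusted p = 0.583), and of 0.29 without knockout replicate 1. These values lie near the signal of the median gene. The hypoxia-inducible Ndufa4l2 read 3.52 on 4 arrays and 3.79 in knockout replicate 2.

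Summed marker signals of epithelium, endothelium, muscle and NK cells were also higher in both knockout arrays than in wild type. Those of T cells, B cells, macrophages and dendritic cells, neutrophils, and fibroblasts were not. The 5 NK cell markers summed to 77.35 to 84.49 in wild type and 85.29 and 161.6 in knockout. Among them Gzma read 6.56 in knockout replicate 2 and 3.27 to 4.01 on the other arrays. For comparison, 57.1% of all genes tested differed upward and 11.6% were higher without overlap. Of 9 lung epithelial markers tested 7 differed upward, 4 of them without overlap. The summed linear signal of all 11 was 225.2 to 258.3 in wild type and 1131 and 320.5 in knockout. Bpifa1, an airway secretory gene, read 8.52 in knockout replicate 1 and 2.85 to 3.22 on the other arrays. Endothelial markers, 6 measured, summed to 201.7 to 226 in wild type and 262.6 and 430.7 in knockout, and of 4 tested 3 differed upward, 2 without overlap (Cldn5 by 1.59 and Cdh5 by 1.44). Kdr was lower without overlap, by 0.15. For striated and smooth muscle 5 of 7 markers tested differed upward, and the 8 measured summed to 197.9 to 201.5 in wild type and 217.9 and 235.6 in knockout. The cardiac myosin gene Myh6 was higher by 0.63 at signals of 3.64 to 4.55. The smooth muscle genes Acta2, Myh11 and Cnn1 differed by -0.15, 0.11 and -0.07. The part of these cells in the differences of Cox6b2, Cox4i2 and the other members was not tested.

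**Figure D4:**
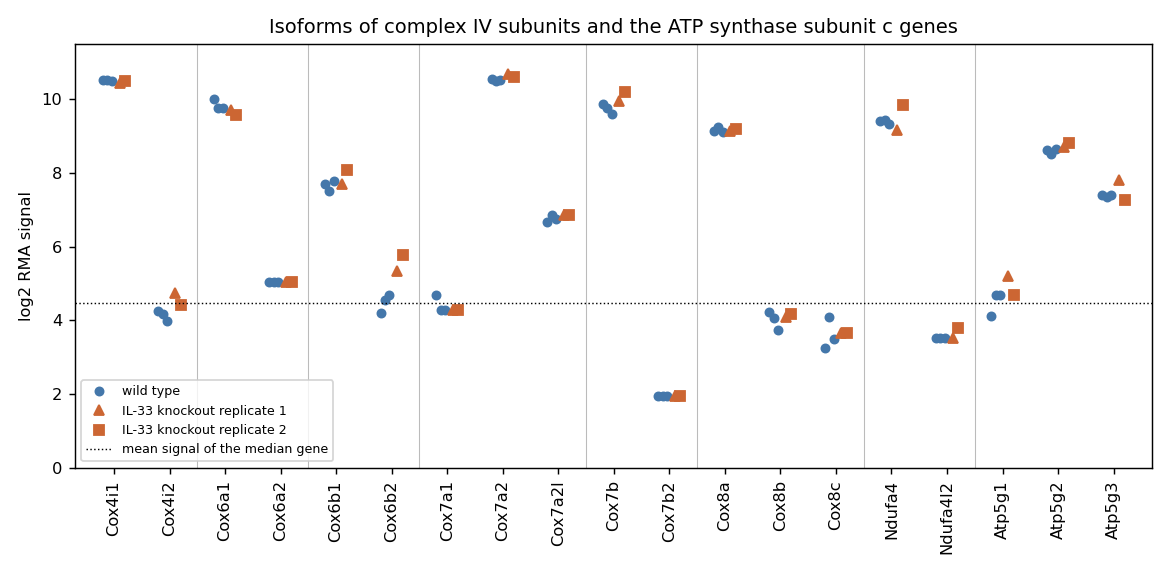
Log2 RMA signal of the isoform sets of complex IV subunits and of the 3 ATP synthase subunit c genes; circles are wild-type arrays, the triangle and the square are knockout replicates 1 and 2, and the dotted line is the mean signal of the median gene (4.48). Cox6b2 and Cox4i2 are higher in both knockout arrays, while Cox6a2 and Cox7b2 have 1 value on all arrays.

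Of the 5 complexes, ATP synthase had the largest share of members without overlap, 8 of 17 (47.1%, against 18.0% of all genes), with 5 higher and 3 lower. Of these 8, Atp5g2 and Atp5mpl overlapped after quantile normalization, Atp5o after median centring, and Atp5e with probe sets averaged. The higher ones included small subunits of the membrane part. Atp5k, which encodes subunit e of the dimer interface, read 7.01, 6.82 and 6.69 in wild type and 7.57 and 7.83 in knockout. The knockout arrays stood 0.56 above the highest wild-type array, and the difference was 0.86 (SE 0.14), or 1.82-fold, with a limma adjusted p of 0.415. Atp5md, which encodes the small membrane subunit also called DAPIT, read 11.38, 11.25 and 11.38 against 11.75 and 12.16, a difference of 0.62 (SE 0.15, limma adjusted p = 0.512). Atp5mpl, encoding another small proteolipid of the complex, read 8.19, 8.32 and 8.06 against 8.40 and 9.13. For Atp5mpl most of the difference of 0.58 came from knockout replicate 2, and it was 0.21 without that array. Other subunits of the same membrane part did not share this: Atp5l, for subunit g, differed by 0.13 and Atp5j2, for subunit f, by -0.25, both with overlap.

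The 3 lower ones were Atp5a1, Atp5pb and Atp5e. Atp5a1, the alpha subunit of the F1 head, read 9.92, 9.70 and 9.70 in wild type and 9.53 and 9.52 in knockout. Its difference was -0.24 (SE 0.09, limma adjusted p = 0.623), and the knockout arrays lay 0.16 below the lowest wild-type array. Atp5b, the catalytic beta subunit that pairs with it, read 10.71 and 10.27 in knockout against 10.28 to 10.41 in wild type, on either side of the range. Atp5pb, subunit b of the peripheral stalk, was at 8.71, 8.68 and 8.62 against 8.30 and 8.49, lower in both knockout arrays by a difference of -0.28 (SE 0.08, limma adjusted p = 0.554), and of -0.18 without knockout replicate 1. Atp5e, the epsilon subunit of the central stalk, was lower by 0.29 at its brighter probe set and higher by 0.26 at its other, so its direction is uncertain. Atp5o, which links stalk and head, was higher by 0.29, and by 0.10 without knockout replicate 1. Atp5o and Atp5pb, both of the peripheral stalk, thus lay on opposite sides of wild type.

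The ring of subunit c, which turns as protons pass, is encoded by Atp5g1, Atp5g2 and Atp5g3, whose mature proteins are the same. Atp5g2 read 8.63, 8.51 and 8.64 in wild type and 8.70 and 8.80 in knockout, a difference of 0.16, and its second probe set gave 0.16 as well. Atp5g3 lay on either side of wild type in the knockout arrays, at 7.80 and 7.27. Atp5g1 differed by 0.45 with overlap. Genes of this family have near-identical copies and pseudogenes, so probes may share transcripts.

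Among the assembly factors of complex I, Ndufaf1 had the widest difference of all members. This factor, needed to build the membrane arm, read 5.55, 4.85 and 6.16 in wild type and 3.31 and 4.46 in knockout. Both knockout arrays were lower, but the arrays of each group were far apart, with SDs of 0.66 (n = 3) and 0.82 (n = 2). The difference was -1.64 (SE 0.57), or 3.11-fold lower, with a limma adjusted p of 0.623 and a range of -2.21 to -1.06 over the alternatives. The other 7 factors had overlapping groups, with differences of -0.31 to 0.17.

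Upstream sequences of the 4 subunit genes with the clearest higher signals in knockout are given below to show what precedes each start. Each has an upward difference of at least 0.5 at an unadjusted p below 0.05 without overlap, is a broadly expressed subunit and has a single promoter entry. They are the 250 bases before the annotated start, 5′ to 3′ on the strand of the gene, from RefSeq (GRCm38.p6), and capitals mark matches to the motif of NRF1, a known activator of respiratory genes. The motif searched is a palindromic consensus with 1 free position. Ndufb3 lies at chr1:58586147-58586396 (plus strand), Cox5b at chr1:36691237-36691486 (plus), Atp5k at chr5:108434400-108434649 (minus) and Atp5md at chr19:47090648-47090897 (minus).
Ndufb3: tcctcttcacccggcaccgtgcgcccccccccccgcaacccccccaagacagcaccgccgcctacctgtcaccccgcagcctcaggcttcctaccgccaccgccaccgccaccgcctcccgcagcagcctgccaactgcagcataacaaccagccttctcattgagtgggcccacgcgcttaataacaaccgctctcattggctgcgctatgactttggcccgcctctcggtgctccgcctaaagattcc
Cox5b: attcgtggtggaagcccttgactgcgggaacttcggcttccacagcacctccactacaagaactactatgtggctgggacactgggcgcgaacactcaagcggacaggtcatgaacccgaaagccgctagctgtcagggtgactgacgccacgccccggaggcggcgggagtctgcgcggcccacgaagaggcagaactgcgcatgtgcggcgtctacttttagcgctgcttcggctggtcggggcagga
Atp5k: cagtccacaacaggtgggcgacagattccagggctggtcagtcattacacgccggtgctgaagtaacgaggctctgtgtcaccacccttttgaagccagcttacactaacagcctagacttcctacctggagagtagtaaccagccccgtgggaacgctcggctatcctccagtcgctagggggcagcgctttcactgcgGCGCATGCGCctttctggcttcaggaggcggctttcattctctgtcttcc
Atp5md: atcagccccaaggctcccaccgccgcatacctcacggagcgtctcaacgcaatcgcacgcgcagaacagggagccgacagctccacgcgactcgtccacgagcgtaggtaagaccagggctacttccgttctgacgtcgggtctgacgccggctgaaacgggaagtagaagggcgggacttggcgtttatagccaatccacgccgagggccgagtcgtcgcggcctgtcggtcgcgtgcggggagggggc

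Of these 4, Atp5k alone held an NRF1 match in the bases shown, starting 50 bases before the start. Matches were counted on both strands in windows of 300 bases (250 before to 50 after the start), for NRF1, for the ETS core CCGGAAG bound by factors such as GABPA, and for AAGATGGCG of YY1. An ETS and a YY1 match can share letters (AAG). Of the 89 members 72 had a promoter entry, and 37 of them (51.4%) held at least 1 match, against 15.1% of the 27025 genes with an entry and 19.8% of the 16918 of these on the array. For NRF1 it was 23.6% of members, 5.19% of genes with an entry and 7.26% of those on the array. For ETS these shares were 26.4%, 9.93% and 12.7%, and for YY1 9.72%, 1.64% and 2.18%. By complex the share with any match was 44.8% of 29 genes in complex I, 21.4% of 14 in complex IV and 73.3% of 15 in complex V. Among members without overlap 6 of 14 higher and 6 of 8 lower genes held a match, and among those with overlap 25 of 49. Matches were thus found in genes of either direction. A match is a run of letters and not a measured site.

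The 3 X-linked members, Ndufa1, Cox7b and Ndufb11, are set beside the Xist signal of knockout replicate 2. Ndufa1, a small membrane-arm subunit, read 10.64, 10.47 and 10.38 in wild type and 10.72 and 10.87 in knockout. Cox7b read 9.86, 9.76 and 9.60 against 9.95 and 10.19. In both genes knockout replicate 2 was the highest array, and the differences of 0.30 and 0.33 were 0.22 and 0.21 without it. The second probe set of Cox7b was discordant, at 5.88 and 3.74 in knockout. The part of sex in these values was not tested.

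Other genes of oxidative phosphorylation lay on both sides of wild type. Of 8 further electron carriers and enzymes tested, 2 lay above and 6 below 0, where 57.1% of all genes lay above. None passed (limma, 2 at an unadjusted p below 0.05). The groups did not overlap for 4 of the 8, against 18.0% of all genes. Of these, 1 was higher and 3 lower, against 11.6% and 6.32% of all genes. Cycs, which encodes cytochrome c, was higher without overlap, by 0.35, while Cyc1, for cytochrome c1 of complex III, was lower by 0.39. The closest arrays of Cyc1 were nearly equal, at 8.2680 in wild type and 8.2671 in knockout. Etfa, an electron transfer flavoprotein subunit, read 7.60, 7.34 and 7.83 in wild type and 7.04 and 6.98 in knockout, a difference of -0.58 (SE 0.17, limma adjusted p = 0.556). Dhodh, the ubiquinone-linked enzyme of pyrimidine synthesis, was lower by 0.14. Of 37 assembly factors outside the naming rule 17 lay above 0, a smaller share than the 57.1% of all genes, and 4 were higher and 1 lower without overlap. These 5 of 37 are no larger a share than the 18.0% of all genes. Cox17, the copper chaperone of complex IV, was higher by 0.40 and Cox20, an assembly factor of the same complex, by 0.91. Sdhaf1, an assembly factor of complex II, was lower by 0.72.

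Regulators of mitochondrial gene expression gave 0 calls. Of 18 tested 13 lay above 0 (57.1% of all genes did), with a median difference of 0.08. Only 1, Yy1, had groups that did not overlap (18.0% of all genes), with a difference of 0.15. Nrf1 read 6.71 and 5.91 in knockout against 6.55 to 6.65 in wild type, on either side. Gabpa differed by 0.10 and Tfam, which packages mitochondrial DNA and acts in its transcription, by 0.01. Ssbp1, the mitochondrial single-strand DNA binding protein, differed by 0.30. Ppargc1a, a coactivator of mitochondrial biogenesis, was too dim to be tested, at 2.60 to 2.90.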

How the data were processed

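RNA of isolated lung ILC2s was labelled with biotin and read on Affymetrix arrays, per the labels' protocols. The values are log2 signals as deposited by the authors; the submitters' processing notes name Affymetrix Expression Console and RMA. Versions and settings are not given in the sources used here. Of 41345 probe sets, 23521 had 1 symbol in the platform annotation, 1814 several (10 of these include a matching gene and were not used) and 16010 none. All 89 members were found by gene identifier in the RefSeq table. Where a gene had several probe sets, the brightest by mean over the 5 arrays was used; 9 members had more than 1.

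Knockout and wild type were set against each other in a limma model (version 3.58.1; R 4.3.3; lmFit and eBayes, no block) over 16635 genes, leaving out the dimmest 25%, at a Benjamini-Hochberg adjusted p of 0.05. The script was tested on simulated data. The number of arrays limits the precision. The members, lists, motifs and tests were chosen with earlier results of these data known. Named genes were members without overlap at an unadjusted p below 0.05, the 3 members per complex with the smallest p, isoform sets, catalytic subunits, X-linked members and the 2 genes with the smallest p per further list; Bpifa1, Uty, Cldn5, Cdh5, Kdr, Kdm5d, Eif2s3y, Myh6, Sdhaf1, Cycs, Cyc1, the regulators other than Yy1 and Ssbp1, and further members outside this rule were named after their values were seen. Alternatives covered the filter, probe sets, scaling, variance model, array weights, block and each array left out. Genes with at least 4 distinct values, and the background among genes with 5, were added after seeing the data. Every marker list (ILC2s, T, B and NK cells, macrophages and dendritic cells, neutrophils, epithelium, endothelium, fibroblasts, muscle) had 0 genes passing.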

Additional observations from a re-analysis of the deposited data

How the results depend on the processing

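No member passed under the 13 alternatives, except without knockout replicate 1, where 3 did (Ndufa7, Ndufa4l2 and Atp5j2); over the arrays left out the count was 0 to 3. Ndufa4l2 had 1 value on the 4 arrays other than knockout replicate 2, and Ndufa7 read 6.12 on each of them. Over all genes the count ranged from 0 to 1072 in the fits that left out 1 array, 1072 without knockout replicate 1 and 389 without knockout replicate 2; these fits take the spread of the lone knockout array from wild type. Members higher without overlap numbered 16 to 35 and members lower 10 to 24 when 1 array was left out, more by construction since fewer arrays must be separated. Median centring gave 10 higher and 20 lower, and quantile normalization 16 lower. Centring subtracts a single value per array, so it moved the difference of every gene by the same amount. Ndufb11, equal on all arrays as deposited, moved to -0.0526. The cause of the change under quantile normalization was not tested. Median centring also moved the median difference of complex I to -0.0356. The medians of complex II and of the assembly factors changed to -0.01 and -0.04 there. The fit with the replicate block gave 0 members passing, as the main fit did, and a difference of 1.22 for Ndufb3 (limma adjusted p = 0.725). The labels do not say that numbers mark a shared litter or day, and same-numbered arrays had deviations correlated at -0.05 and 0.14. None of the 26 members without overlap changed sign under these alternatives. This was largely fixed in advance, since without overlap only scaling or averaging of probe sets can turn a sign. Of 51 named genes followed 11 changed sign, all with overlap. Of 658 pairs of these 51 genes with an alternative, 657 stayed on the same side of the threshold. Ndufa7, Atp5j2 and Ndufa11 were not among the genes followed, and Ndufa11 turned from -0.74 to 0.10 without knockout replicate 2. Dim genes, Cox4i2 among them, are limited by background.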
